A study of Mus musculus with 15 samples.

Results

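The 10 genes described here encode the enzymes that cut and rejoin antigen receptor genes: Rag1, Rag2 and Dntt, which are lymphoid, and Xrcc5, Xrcc6, Prkdc, Dclre1c, Lig4, Xrcc4 and Nhej1, which serve end joining in most cells. They were chosen by name, as 10 of the 55335 genes that the files list, and all 10 were found there. The RNA came from mouse pre-B cells in culture, the stage of B cell development at which light chain genes are rearranged. Per the labels, the cells came from bone marrow lacking SLP65 (the adaptor of the pre-B cell receptor, encoded by Blnk), were expanded from 1 cell and were kept in IMDM medium with IL7 without further treatment. A guide RNA against Msl2, which encodes a ubiquitin ligase of the MSL histone acetyltransferase complex, was electroporated into them to make the knockout line. There were 3 libraries titled MSL2WT-preB, called wild type here, and 3 titled MSL2KO-preB, called knockout. Both groups carry the Slp65KO allele, per the labels. Blnk RNA was nevertheless present in all 6 libraries, at 83.0 to 119 CPM, and gene-level counts cannot show which part of the gene was deleted. Each genotype is 1 line, and no label gives the replicates as separate cultures, so p-values reflect only how far these libraries differ from each other, possibly for technical reasons. The comparison addressed gene expression in the Msl2 knockout against the wt clone.

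In V(D)J recombination the RAG1-RAG2 recombinase cuts DNA beside V, D and J segments, leaving hairpins on the coding ends and blunt signal ends. Classical non-homologous end joining then repairs both: Ku binds the ends, DNA-PKcs and Artemis open the hairpins, terminal transferase can add untemplated bases, and the ligase IV complex seals the break. In pre-B cells, signalling through the interleukin 7 receptor is known to keep cells dividing and to hold back Rag transcription, and FOXO1 is an activator of both Rag genes.

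The genotype tags of all 6 RNA libraries say the opposite of their titles. The groups follow the titles, and every direction given below depends on them. Msl2 RNA was lost in neither group and was higher in the libraries titled knockout: 97.0, 99.2 and 92.1 CPM in those titled wild type against 105, 103 and 121 CPM (log2 fold change 0.19, unadjusted p = 0.0434 and adjusted p = 0.302 in edgeR). The difference was not called, and gene-level counts cannot show edited alleles. Which libraries carry the edit was not tested. The libraries held between 14092278 and 20803227 reads in all, and mitochondrial genes took 1.40% to 1.78% of them. Levels are in CPM (read counts divided by TMM-adjusted library size, on a common scale), and 0 reads in 1 library allow a level of up to between 0.141 and 0.212 CPM (3 counts, counting error only). Of 13077 genes tested with edgeR's quasi-likelihood test, the knockout had 235 higher and 365 lower ones (adjusted p under 0.05), or 4.59% of those tested. Markers of the labelled cell type were present: all 12 B lineage markers were tested, and their summed level was 3928 to 4150 CPM in wild type and 3943 to 4026 CPM in knockout. Of these 12, only Il7r, the interleukin 7 receptor chain, was called, falling from 81.9 ± 12 to 28.0 ± 11 CPM (SD, n = 3 each, log2 fold change -1.53, adjusted p = 0.00392 in edgeR). Markers of other cell types were near 0. The 11 T and NK markers summed to 1.59 to 3.72 CPM in wild type and 1.32 to 2.17 CPM in knockout, with Thy1, Ncr1 and Nkg7 at 0 in every library, and the 9 myeloid markers to 0.927 to 2.03 and 0.890 to 2.17 CPM, with Lyz2, Elane, S100a8 and S100a9 at 0. The 7 erythroid and megakaryocyte markers summed to 2.65 to 3.46 CPM in wild type and 1.43 to 1.58 CPM in knockout, with Pf4 at 0, and 1 of them, Gata1, fell (1.85 ± 0.31 to 0.235 ± 0.15 CPM, adjusted p = 0.00458 in edgeR). The 6 stromal markers summed to at most 0.199 CPM.

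None of the 10 genes was called different in the knockout by edgeR's quasi-likelihood test, against 4.59% of all tested genes. The 7 end joining genes were expressed in every library, and their fitted log2 fold changes lay between -0.26 and 0.04. The 3 lymphoid genes were each at or under 54 reads in every library. Rag1 and Rag2 had 0 reads in wild-type replicates 1 and 3 and 34 and 27 reads in wild-type replicate 2, so that 1 library decided their comparison. Of the 10 genes, 9 passed edgeR's filter on low counts and were tested, and Dntt did not. Among these 9, the log2 fold change was positive for 4 and negative for 5, with a median of -0.05, where all tested genes had a median of 0.0040 and 51% were positive. At an unadjusted p under 0.05 there were 2 of the 9, Rag2 and Xrcc5, where 15.4% of all tested genes were. DESeq2 called 1, Xrcc5, where it called 6.06% of all tested genes. limma-voom called 1, Rag2, where it called 4.74%.

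**Figure D1:**
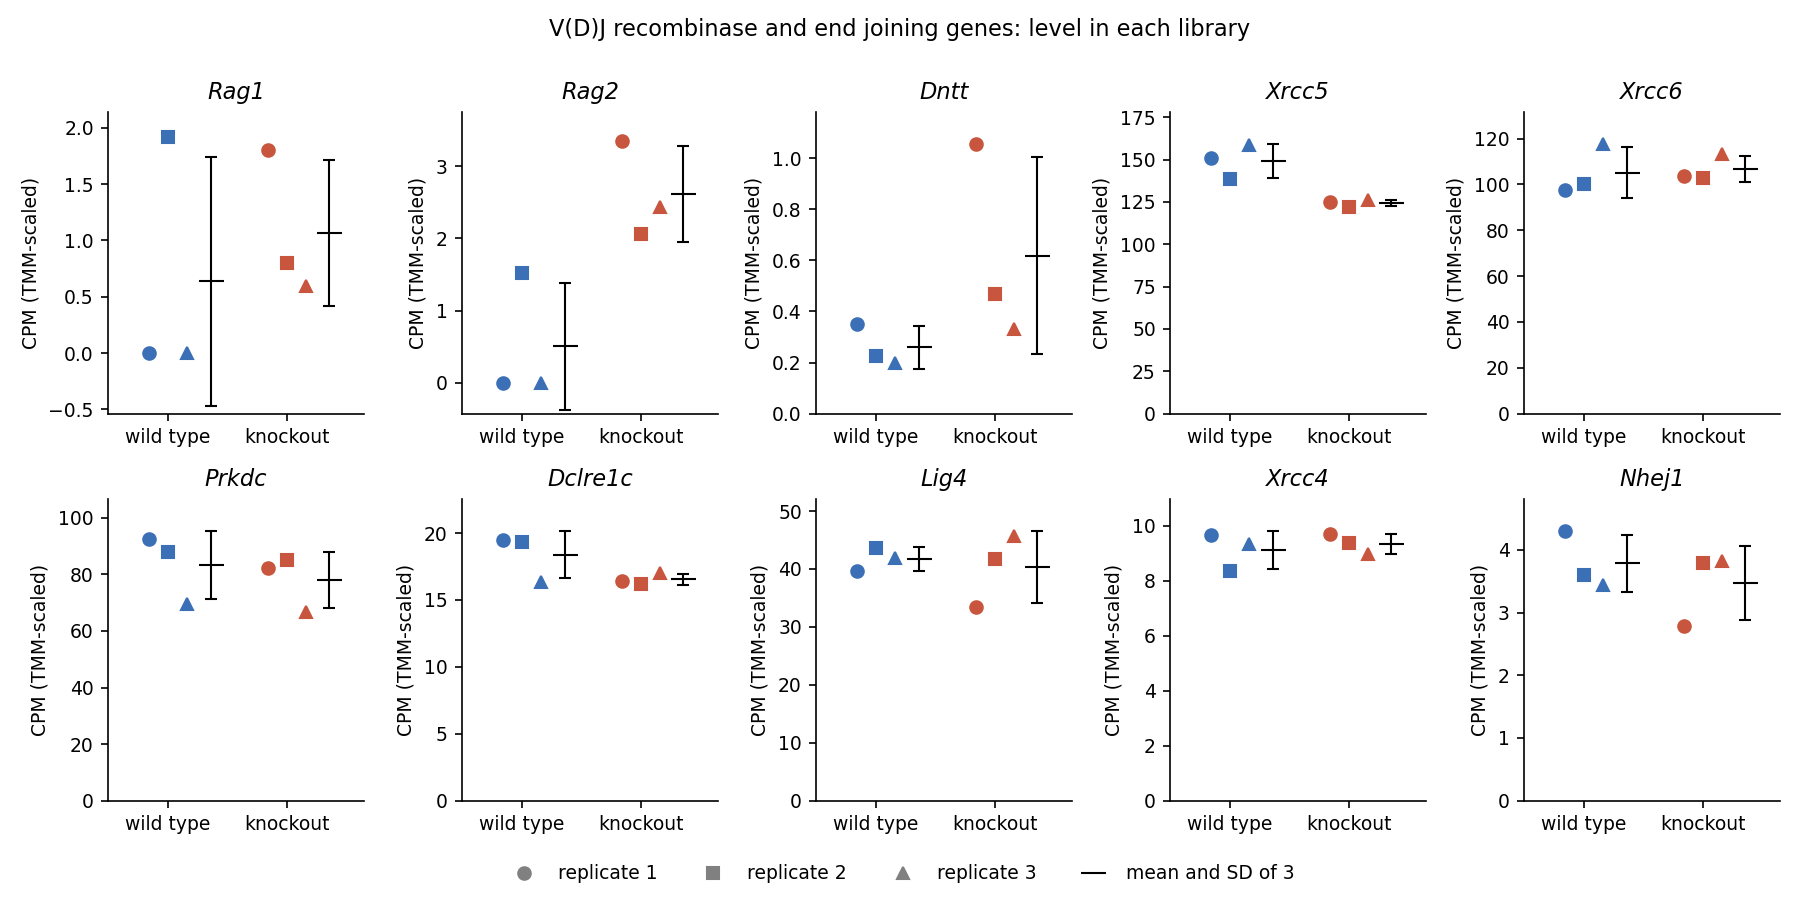
Level of each of the 10 genes in CPM (y axes, linear, each with its own scale) in the 3 wild-type and 3 knockout libraries (points, shaped by replicate number), with the mean and SD of 3 beside each group. Rag1 and Rag2 are at 0 in wild-type replicates 1 and 3 but not in replicate 2, and Xrcc5 is the only end joining gene whose groups do not overlap. SD bars of the wild-type Rag genes extend below 0 because 2 of 3 values are 0.

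Rag1 (ENSMUSG00000061311.6, mm10 chromosome 2, 101638252 to 101649532) encodes the catalytic subunit of the recombinase. It had 0, 34 and 0 reads in wild-type replicates 1, 2 and 3 and 29, 17 and 9 reads in knockout replicates 1, 2 and 3. In CPM these were 0, 1.91 and 0 against 1.80, 0.797 and 0.593, with means of 0.638 ± 1.1 and 1.06 ± 0.65 (SD, n = 3 each). The highest of the 6 values was thus a wild-type one, and the groups overlapped. The log2 fold change was 0.62 ± 1.00 (SE), and its 95% interval ran from -1.60 to 2.84 (adjusted p = 0.868 in edgeR). limma-voom gave 2.89 (95% interval 0.35 to 5.43; adjusted p = 0.241). The edgeR interval spans both large decreases and large increases, and neither tool called Rag1.

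Rag2 (ENSMUSG00000032864.4, chromosome 2, 101624712 to 101632528) encodes the partner subunit that reads histone H3 lysine 4 trimethylation. It had 0, 27 and 0 reads in wild type against 54, 44 and 37 in knockout. These were 0, 1.52 and 0 CPM against 3.35, 2.06 and 2.44 CPM, with means of 0.507 ± 0.88 and 2.62 ± 0.66 (SD, n = 3 each). All 3 knockout values lay above all 3 wild-type values, as they did for 9.68% of tested genes. The log2 fold change was 2.23 ± 0.85 (SE; 95% interval 0.34 to 4.12), with an unadjusted p of 0.0252 and an adjusted p of 0.223 in edgeR, so the call was not made. The tool mattered for this gene. The adjusted p was 0.821 in DESeq2 and 0.0310 in limma-voom, where the log2 fold change was 4.39. In the edgeR fit with no filter on low counts, where 4.51% of 26696 genes were called, it was 4.69e-07. That fit gave the same log2 fold change of 2.23 with an SE of 0.38 in place of 0.85. It thus allowed for less replicate spread, although the wild-type libraries had 0, 27 and 0 reads. Exact Poisson intervals, which cover counting error only, ran from 1.00 to 2.21 CPM in wild-type replicate 2 and from 1.5 to 2.77 CPM in knockout replicate 2, so these 2 overlap. The interval of knockout replicate 1, 2.52 to 4.37 CPM, lay above that of wild-type replicate 2, and that of knockout replicate 3, 1.72 to 3.36 CPM, overlapped it.

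**Figure D2:**
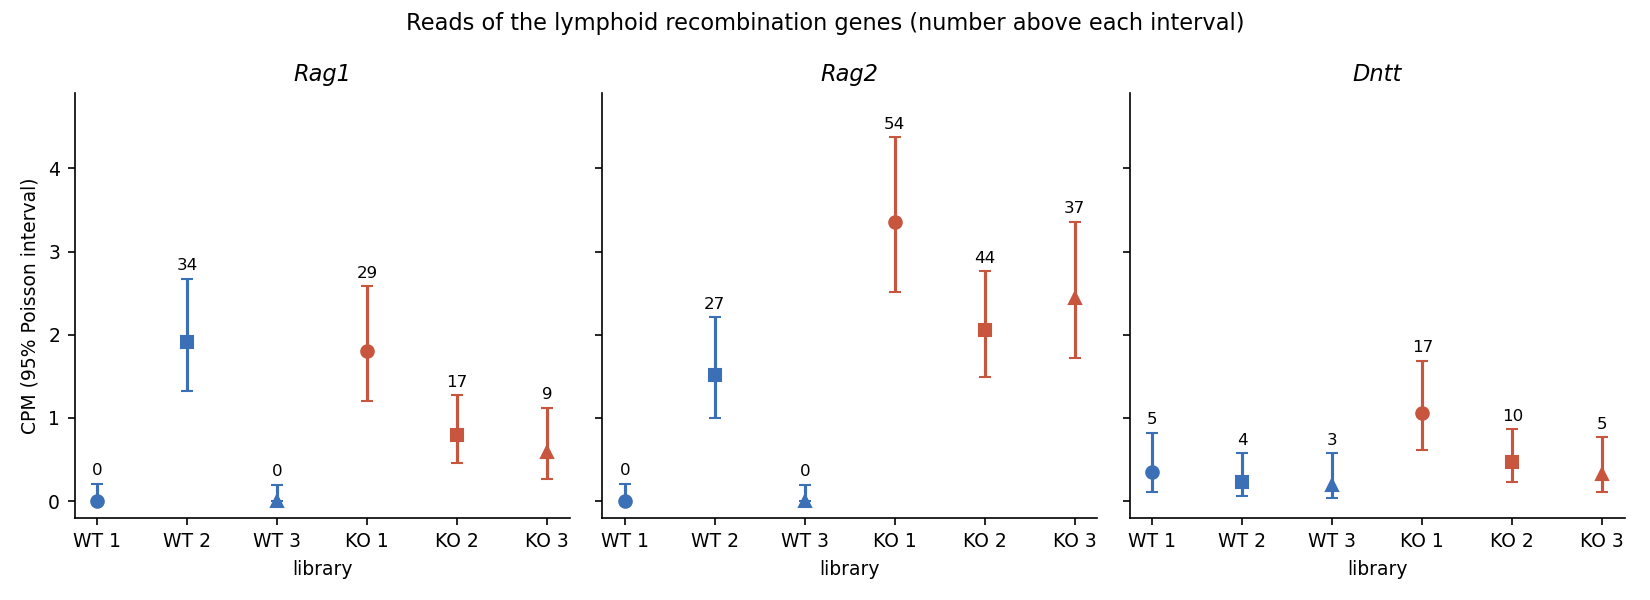
Level of Rag1, Rag2 and Dntt in CPM (y axis, linear and shared) in each of the 6 libraries (WT 1 to 3, wild type; KO 1 to 3, knockout), with exact 95% Poisson intervals for counting error (for 0 reads, the limit of 3 counts) and the number of reads printed above each. Rag1 and Rag2 have 0 reads in WT 1 and WT 3 and 34 and 27 reads in WT 2, and Dntt has 3 to 5 reads in wild type and 5 to 17 in knockout.

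Without wild-type replicate 2, the wild-type libraries held no read of either Rag gene. A test against them is set by that removal and is not read here, and a fold can be given only against a floor. The floor was 3 counts over these 2 libraries (0.102 CPM). The knockout mean was 10.4 times this floor for Rag1 and 25.5 times for Rag2. Wild-type replicate 2 itself was at 18.7 and 14.8 times the floor. These multiples are set by the removal as well, and they leave out counting error in the libraries above the floor. Set against that library alone, the knockout mean was 0.555 times as high for Rag1 and 1.72 times as high for Rag2. RNA of this kind cannot tell fewer cells that express a gene from less RNA per cell.

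Few genes had reads in wild-type replicate 2 and none at all in the other wild-type libraries. Over all genes in the files, 4 had no read in wild-type replicates 1 and 3 and at least 20 reads in replicate 2 (a minimum chosen after the values were seen): Rag1, Rag2, Zbtb10 and Epha2. Zbtb10 had 33 reads there, and 0, 6 and 0 in the knockout libraries. Epha2, which encodes an ephrin receptor, had 64 reads there and 185, 114 and 113 in the knockout libraries (adjusted p = 0.151 in edgeR). By the same rule, knockout replicate 2 had 2 such genes and the other 4 libraries had 0. At a minimum of 10 reads, wild-type replicate 2 had 6 such genes and knockout replicate 2 had 4. The rule leaves out genes with a few reads in the other wild-type libraries. Iglc1 had 1, 58 and 2 reads in wild-type replicates 1, 2 and 3, and Tmtc1 had 3, 134 and 2. The pattern in a looser sense is thus not particular to the Rag genes. Markers of other cell types were low in wild-type replicate 2 as well, although its T and NK sum of 3.72 CPM was the highest of the 6 libraries. The part of any such difference in the Rag values was not tested.

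Rag1 made up 55.7% of the 61 reads of both genes in wild-type replicate 2 (exact binomial 95% interval 42.4% to 68.5%). It made up 34.9% of 83 (24.8% to 46.2%), 27.9% of 61 (17.1% to 40.8%) and 19.6% of 46 reads (9.36% to 33.9%) in knockout replicates 1, 2 and 3. The interval of wild-type replicate 2 lay above those of knockout replicates 2 and 3 and overlapped that of knockout replicate 1. With 1 wild-type library holding reads, this difference has no replicate check. The ratio is of reads and not of molecules per length.

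The DNA before the start of the 3 lymphoid genes is shown because these are the members whose transcription is restricted to lymphocytes. The sequences are the 250 bases before the annotated start, read in the direction of the gene, from RefSeq for GRCm38.p6, the assembly of mm10. Capitals mark letters that match a searched motif. Those of Rag1 come from chr2:101649533-101649782 (minus strand), those of Rag2 from chr2:101624462-101624711 (plus strand) and those of Dntt from chr19:41029025-41029274 (plus strand).
Rag1: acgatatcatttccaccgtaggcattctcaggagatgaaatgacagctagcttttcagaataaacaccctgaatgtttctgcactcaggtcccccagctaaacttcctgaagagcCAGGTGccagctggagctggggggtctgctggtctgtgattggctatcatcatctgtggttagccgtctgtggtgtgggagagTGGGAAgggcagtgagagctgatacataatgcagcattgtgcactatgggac
Rag2: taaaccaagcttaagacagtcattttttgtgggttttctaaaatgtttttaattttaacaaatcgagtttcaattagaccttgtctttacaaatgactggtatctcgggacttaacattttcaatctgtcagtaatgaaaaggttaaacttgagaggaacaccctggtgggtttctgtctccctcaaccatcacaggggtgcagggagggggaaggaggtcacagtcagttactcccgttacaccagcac
Dntt: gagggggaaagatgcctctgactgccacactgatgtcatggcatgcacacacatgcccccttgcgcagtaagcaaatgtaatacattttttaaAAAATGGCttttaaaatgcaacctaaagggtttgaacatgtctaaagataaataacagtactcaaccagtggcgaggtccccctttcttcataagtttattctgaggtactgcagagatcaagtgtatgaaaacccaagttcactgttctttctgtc
Windows of 300 bases (250 before an annotated start and 50 from it on) were searched on both strands. Rag1 held CAGGTG, an E-box bound by E2A proteins, at -135 to -130 and TGGGAA, the Ikaros core, at -52 to -47, counting the base before the start as -1. These letters were found in 20.2% and 25.6% of all 32851 windows. Dntt held a match to AANATGGC, the YY1 motif, at -157 to -150, as did 6.05% of windows. Rag2 held none of the 6 motifs searched. The FOXO motif was searched as GTAAACA, which 3.65% of windows held. The motif of ETS family proteins was searched as CCGGAAG, which 8.86% of windows held. The core promoter box was searched as TATAAA, which 13.6% of windows held. Some of these motifs can overlap in sequence, and a match is a description of letters only.

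Windows were found for 9 of the 10 genes, and Prkdc was not among them. The Xrcc6 window (chromosome 15, 82016119 to 82016418) lies inside the gene span given below, so its annotated start is not the outermost one. CpG counts were lower for each of the 3 lymphoid genes than for any of the others. Rag1, Rag2 and Dntt had 3, 3 and 2 CpG dinucleotides, where all windows had a median of 7. The end joining windows had 9 (Xrcc5), 10 (Nhej1), 12 (Dclre1c), 30 (Xrcc6), 31 (Xrcc4), and 29 and 30 in the 2 windows of Lig4. CCGGAAG was found in the windows of Dclre1c, Xrcc4 and Lig4, in 4 of the 10 member windows in all. The FOXO motif and the core promoter box were found in none of the 10.

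The 2 other tested genes near Rag1 and Rag2 had reads in every library. Traf6 (chromosome 2, 101678420 to 101701668), a ubiquitin ligase of receptor signalling, had 733, 877 and 749 reads in wild type against 726, 967 and 757 in knockout, with a log2 fold change of -0.10 (adjusted p = 0.631 in edgeR). Commd9 (101886262 to 101901639) was at 19.2 ± 3.5 and 19.4 ± 1.7 CPM (SD, n = 3 each), with a log2 fold change of 0.02 (adjusted p = 0.974). No other gene within 250 kb was tested. B230118H07Rik, named Iftap in RefSeq (101560779 to 101629031), overlaps Rag2 and had at most 1 read in any library. The strand setting of the counting is not given in the sources used here, so reads in the overlap cannot be assigned with certainty. Prr5l also had at most 1 read in any library.

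Dntt (ENSMUSG00000025014.13, chromosome 19, 41029275 to 41059525) encodes terminal transferase, which adds untemplated bases at coding joints and is best known from the pro-B stage. It had 5, 4 and 3 reads in wild type against 17, 10 and 5 in knockout. The levels were 0.353, 0.225 and 0.199 CPM against 1.06, 0.469 and 0.329 CPM, with means of 0.259 ± 0.082 and 0.618 ± 0.39 (SD, n = 3 each). The lowest knockout value lay below the highest wild-type value. In the edgeR fit with no filter the log2 fold change was 1.23 ± 0.60 (SE; 95% interval 0.07 to 2.40), with an unadjusted p of 0.0381 and an adjusted p of 0.407. For Rag1 and Rag2 that fit gave SEs of 0.43 and 0.38, against 1.00 and 0.85 with the filter. The interval of Dntt is therefore not comparable with theirs. Without knockout replicate 1 the log2 fold change of Dntt was 0.64 (95% interval -0.77 to 2.04). Unlike Rag1 and Rag2, Dntt had reads in all 6 libraries, and wild-type replicate 2 lay between the other wild-type values.

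Ku holds broken ends as a ring of 2 subunits. Xrcc5 (ENSMUSG00000026187.9, chromosome 1, 72307417 to 72394953) encodes Ku80 and was at 151, 139 and 158 CPM in wild type and 125, 122 and 126 CPM in knockout. Wild type averaged 149 ± 10 CPM and knockout 124 ± 1.9 CPM (SD, n = 3 each). All 3 knockout values were below all 3 wild-type values, as for 11.2% of tested genes, and groups did not overlap in either direction for 20.9% of tested genes and for 2 of the 9 tested members, Rag2 and Xrcc5. The log2 fold change was -0.26 ± 0.07 (SE), and its 95% interval of -0.43 to -0.10 corresponds to a change between -25.6% and -6.68%. The unadjusted p was 0.00490 and the adjusted p 0.0783 in edgeR, 0.0418 in DESeq2 and 0.0807 in limma-voom. The call therefore depended on the tool, while the direction was the same in all 14 alternatives (log2 fold change -0.32 to -0.22).

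Xrcc6 (ENSMUSG00000022471.14, chromosome 15, 81987833 to 82040085) encodes the partner Ku70. Its levels were 97.5, 100.4 and 118 CPM in wild type against 104, 103 and 113 CPM in knockout, with means of 105 ± 11 and 107 ± 5.8 (SD, n = 3 each). The knockout values lay within the wild-type range. The log2 fold change was 0.02 ± 0.09 (SE; 95% interval -0.18 to 0.21, a change between -11.5% and 16.1%; adjusted p = 0.962 in edgeR). The ratio of Xrcc6 to Xrcc5 reads, which does not depend on library scaling, was 0.646, 0.724 and 0.743 in wild type and 0.831, 0.841 and 0.900 in knockout. On the log2 scale the group means were -0.51 ± 0.11 and -0.22 ± 0.06 (SD, n = 3 each), a difference of 0.28 that stayed between 0.22 and 0.32 when 1 library was left out. The groups did not overlap, and the two-sided exact permutation p was 0.1, the smallest that 3 against 3 libraries allow. This p cannot pass 0.05, and the ratio is not per length. Neither gene was called in edgeR fitted without covariates, while DESeq2 called Xrcc5.

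Ku recruits the kinase DNA-PKcs, which activates the nuclease Artemis. Prkdc (ENSMUSG00000022672.8, chromosome 16, 15637444 to 15842239) encodes DNA-PKcs and was at 92.5, 87.8 and 69.6 CPM in wild type and 82.4, 85.0 and 66.6 CPM in knockout. Replicate 3 was the lowest of both groups, and the ranges overlapped. The log2 fold change was -0.09 ± 0.12 (SE; 95% interval -0.37 to 0.18; adjusted p = 0.822 in edgeR). Dclre1c (ENSMUSG00000026648.18, chromosome 2, 3424061 to 3474211) encodes Artemis, which opens the hairpins that RAG leaves on coding ends. Its levels were 19.5, 19.4 and 16.4 CPM in wild type against 16.4, 16.2 and 17.0 CPM in knockout. The groups overlapped through wild-type replicate 3, and the log2 fold change was -0.16 ± 0.11 (SE; 95% interval -0.39 to 0.08; adjusted p = 0.585 in edgeR).

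The ligation step needs DNA ligase IV, its scaffold XRCC4 and XLF. Lig4 (ENSMUSG00000049717.9, chromosome 8, 9970020 to 9977680) was at 39.6, 43.7 and 41.9 CPM in wild type and 33.5, 41.8 and 45.7 CPM in knockout. The knockout libraries included both the lowest and the highest value, and the log2 fold change was -0.05 ± 0.11 (SE; 95% interval -0.30 to 0.20; adjusted p = 0.913 in edgeR). Xrcc4 (ENSMUSG00000021615.13, chromosome 13, 89848914 to 90089608) was at 9.66, 8.33 and 9.34 CPM in wild type and 9.68, 9.37 and 8.96 CPM in knockout. Its log2 fold change was 0.04 ± 0.13 (SE; 95% interval -0.26 to 0.33; adjusted p = 0.948). The log2 ratio of Lig4 to Xrcc4 reads was 2.20 ± 0.18 in wild type and 2.10 ± 0.29 in knockout (SD, n = 3 each; two-sided exact permutation p = 0.6). Nhej1 (ENSMUSG00000026162.7, chromosome 1, 74967346 to 75125226), which encodes XLF, was at 4.30, 3.60 and 3.44 CPM in wild type and 2.79, 3.80 and 3.82 CPM in knockout. It had the widest interval of the end joining genes, with a log2 fold change of -0.12 ± 0.23 (SE; 95% interval -0.62 to 0.38; adjusted p = 0.892).

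**Figure D3:**
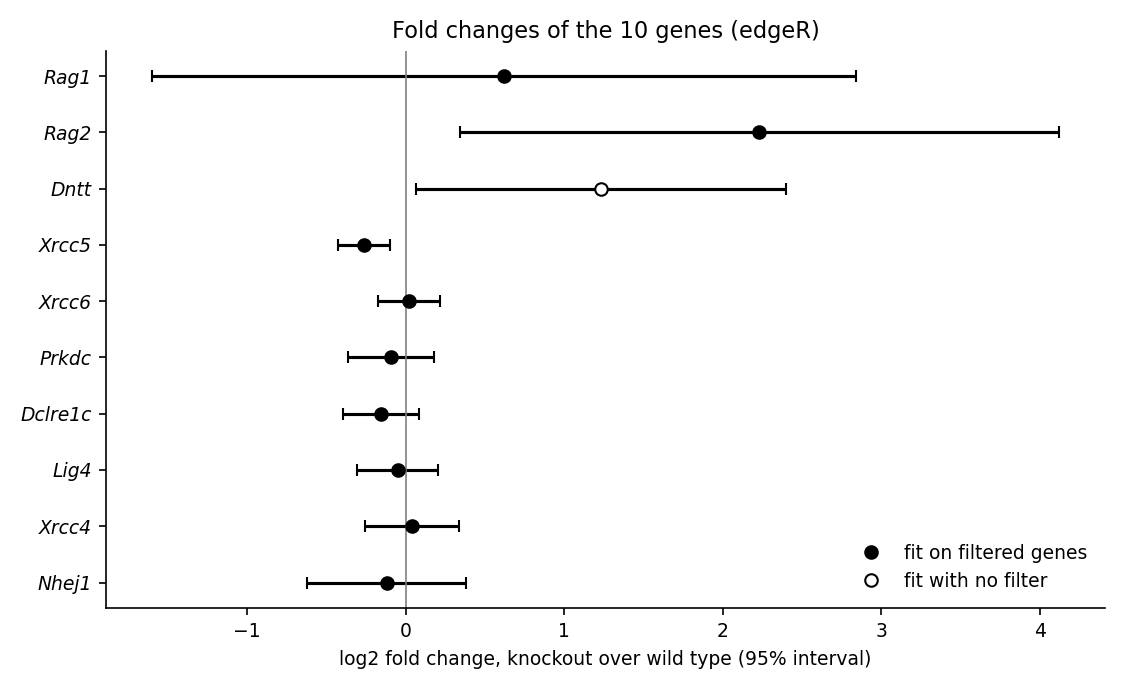
Log2 fold change of the knockout over wild type (x axis) for the 10 genes, with 95% intervals from edgeR. Filled points come from the fit on filtered genes and the open point (Dntt) from the fit with no filter. The fit with no filter gave smaller SEs for Rag1 and Rag2, so the width for Dntt is not comparable with theirs. The 7 end joining genes have intervals within -0.62 and 0.38, and the interval of Rag1 runs from -1.60 to 2.84.

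Across the 7 end joining genes, 2 fold changes were positive and 5 negative, with a median log2 of -0.09. The biological coefficient of variation, the replicate spread that edgeR fits per gene, was 0.939 for Rag1 and 0.812 for Rag2, where the median of all tested genes was 0.103. It was 0.0719 for Xrcc5 and 0.170 for Nhej1. Intervals are accordingly narrow for the end joining genes and wide for the recombinase.

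The genes whose pattern over the 6 libraries was most like that of Rag1 were Iglc1, Tmtc1 and Tmem255a, with root-mean-square differences of 0.369, 0.413 and 0.575 in centred log2 CPM (prior count 2). Rag1 and Rag2 differed from each other by 0.773 on this measure. The like genes were picked by their levels in these same 6 libraries. Their patterns and adjusted p-values therefore follow in part from the choice and are a description only. Iglc1, a constant segment of the lambda light chain, was at 0.0705, 3.27 and 0.132 CPM in wild type and 2.86, 1.92 and 2.17 CPM in knockout (adjusted p = 0.716 in edgeR). Its high level in wild-type replicate 2 follows from its choice by likeness to Rag1, and its reads may be shared with near-identical segments. Most like Rag2 were Gm36120 (0.515, adjusted p = 0.0248 in edgeR), Iglc1 (0.560) and Cemip2 (0.594, adjusted p = 0.0211), and most like Dntt were Ackr4 (0.131), Azin2 (0.150) and Blvrb (0.162). The prior count damps differences at low read counts such as those of Dntt. Its smaller values are therefore not closer matches than those of Rag1 and Rag2.

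Transcription factors with known ties to the Rag and Dntt genes were the only related group with calls in edgeR. This list had 26 tested genes, where the others had 7 to 14. All lists were chosen with earlier results of these data known, so these calls are a description and not a test of the group. Of 29 listed, 26 were tested, and 0 were called higher and 3 lower in the knockout: Gfi1b, Ets1 and Spib. Of all tested genes, 2.79% were called lower. The median log2 fold change of the 26 was 0.08, with 17 positive and 9 negative, and 6 of the 26 had an unadjusted p under 0.05, against 15.4% of all tested genes. Gfi1b, a repressor known to restrain Rag transcription, was at 58.0, 36.8 and 50.8 CPM in wild type and 16.4, 16.3 and 16.8 CPM in knockout. It fell by 1.56 ± 0.15 on the log2 scale (SE; adjusted p = 0.000468 in edgeR) and was called in all 14 alternatives (-1.72 to -1.41). Among the wild-type libraries its lowest level was in replicate 2. That is 1 library, and no relation to the Rag reads in it was tested. Ets1, an activator of lymphoid genes, was at 204, 205 and 201 CPM in wild type and 115, 135 and 137 CPM in knockout. It fell by 0.66 ± 0.08 (SE; adjusted p = 0.00149 in edgeR), also in all 14 alternatives. Spib, a factor related to PU.1, was at 64.6, 67.1 and 70.5 CPM against 55.2, 42.7 and 41.7 CPM and fell by 0.54 ± 0.11 (SE; adjusted p = 0.0198 in edgeR). Its call was lost in 5 of the 14 alternatives, namely without wild-type replicate 2 (adjusted p = 0.0617), wild-type replicate 3 (0.0566), knockout replicate 2 (0.0825), knockout replicate 3 (0.0707) or both libraries numbered 2 (0.194).

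Foxo1 and Tcf3, named after their values were seen because DESeq2 called them, encode activators that act on Rag enhancers. Foxo1 was at 35.8, 53.3 and 27.8 CPM in wild type and 63.9, 60.6 and 62.3 CPM in knockout. Its wild-type maximum was in replicate 2, as for 14 of the 26 listed factors tested and 28.4% of all tested genes, and all knockout values were higher. The log2 fold change was 0.67 ± 0.18 (SE; adjusted p = 0.0741 in edgeR and 0.00397 in DESeq2). Without wild-type replicate 2 it was 0.97, with an adjusted p of 0.00257 in edgeR, in a fit that called 3.77% of 13358 genes. Without any 1 of the other 5 libraries it was not called, and the adjusted p ranged from 0.119 to 0.218. Its lowest value was 0.48, without wild-type replicate 3. Tcf3, which encodes the E2A proteins, was at 291, 318 and 347 CPM in wild type and 394, 370 and 404 CPM in knockout (log2 fold change 0.29 ± 0.08 SE, adjusted p = 0.0876 in edgeR and 0.0162 in DESeq2). Without wild-type replicate 3 its adjusted p was 0.0388, and without any 1 of the other 5 libraries it was between 0.149 and 0.313. In the edgeR fit with no filter, which called 4.51% of 26696 genes, Foxo1, Tcf3, Id2 and Id3 were called higher. Id2 and Id3, also named after their values were seen, were not called with the filter. Their log2 fold changes there were 0.82 and 0.42 (adjusted p = 0.459 and 0.343 in edgeR), and their groups overlapped. All these factors and the Rag genes were measured in the same 6 libraries, and no relation between them was tested.

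**Figure D4:**
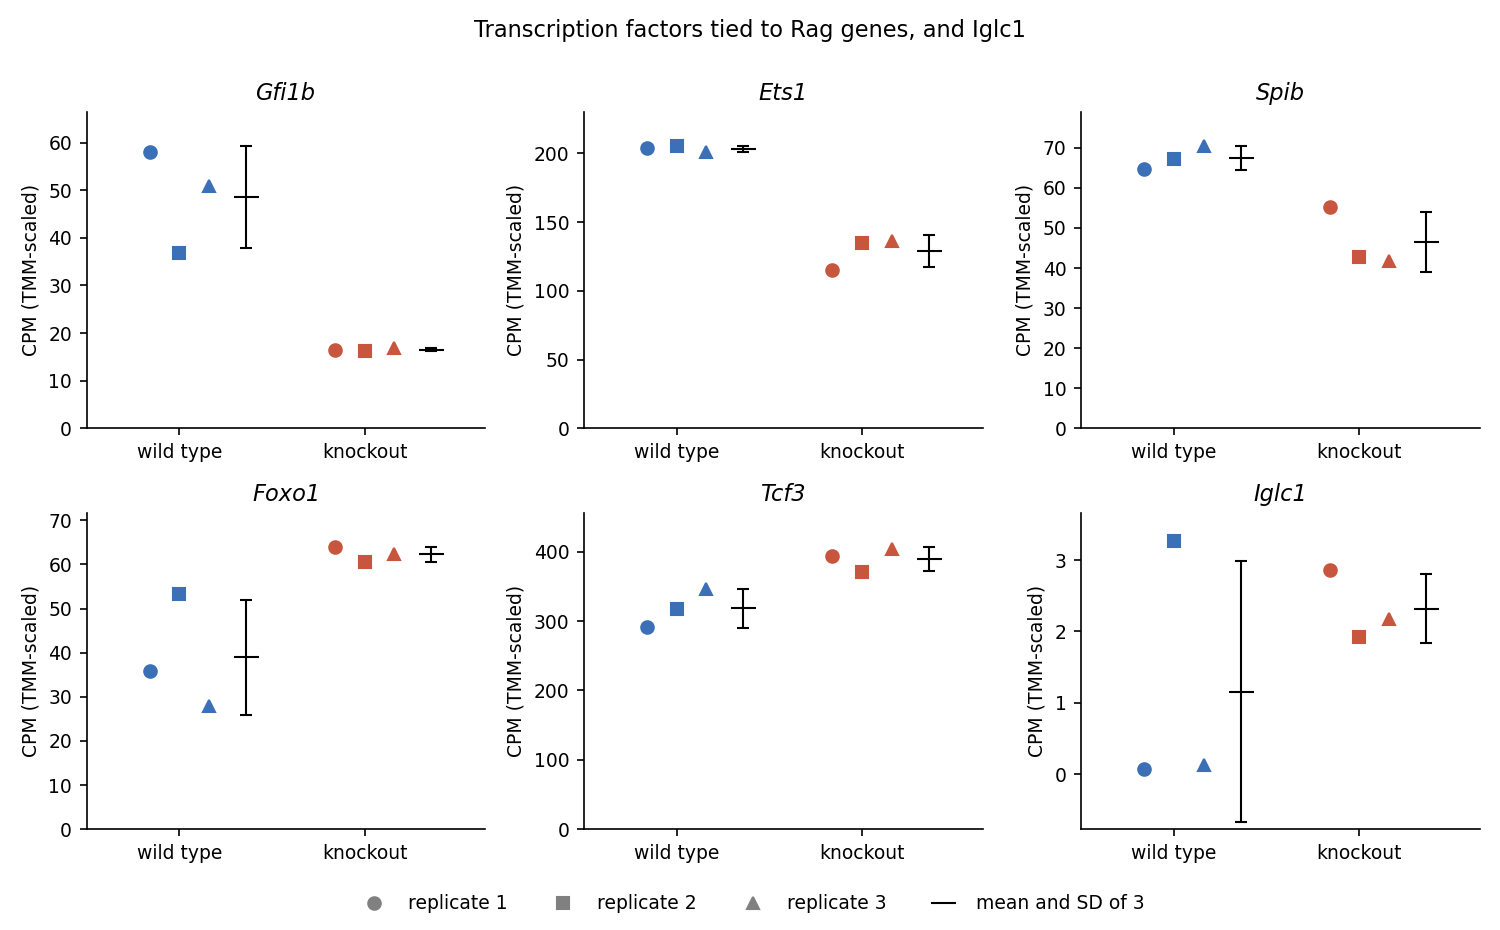
Level in CPM (y axes, linear) of Gfi1b, Ets1, Spib, Foxo1, Tcf3 and Iglc1 in the 3 wild-type and 3 knockout libraries (points, shaped by replicate number), with the mean and SD of 3. Gfi1b, Ets1 and Spib are lower in every knockout library. In wild-type replicate 2 (blue square) Gfi1b is the lowest and Foxo1, Iglc1 and, by little, Ets1 the highest of the 3 wild-type values. Spib and Tcf3 are highest in wild-type replicate 3. Iglc1 was chosen by its likeness to Rag1 over these libraries.

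The wider repair machinery around these 10 genes held no calls in edgeR or in DESeq2. Of 14 accessory end joining factors, all tested, 6 fold changes were positive and 8 negative (median log2 -0.07), and 2 had an unadjusted p under 0.05. Polm, a polymerase that fills gaps at light chain joins, was at 5.43 ± 1.1 CPM in wild type and 8.13 ± 2.0 CPM in knockout (SD, n = 3 each; log2 fold change 0.58, adjusted p = 0.223 in edgeR). Ercc6l2, a helicase-like factor of end joining, was at 60.8 ± 7.2 and 51.7 ± 0.98 CPM (SD, n = 3 each; log2 fold change -0.23, adjusted p = 0.241). Groups did not overlap for 3 of the 14, Polm and Ercc6l2 among them, against 20.9% of all tested genes. Of 15 genes of break signalling, 14 were tested, with 8 positive and 6 negative (median 0.03) and 0 at an unadjusted p under 0.05. The smallest p-values there belonged to Trp53, encoding p53 (log2 fold change 0.21, adjusted p = 0.529), and Nbn, of the MRN complex that senses breaks (log2 fold change -0.10, adjusted p = 0.678).

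RAG cofactors and the factors that turn RAG over gave a similar count. All 12 were tested, with 8 positive and 4 negative fold changes (median log2 0.01) and 1 at an unadjusted p under 0.05. Hmgb2, a DNA-bending cofactor of RAG cleavage, was at 527 ± 42 CPM in wild type and 614 ± 55 CPM in knockout (SD, n = 3 each; log2 fold change 0.22, adjusted p = 0.275 in edgeR). Hmgb1, its close relative, was at 948 ± 66 and 1022 ± 57 CPM (SD, n = 3 each; log2 fold change 0.11, adjusted p = 0.644). Both have near-identical pseudogenes with which reads could be shared. Of 8 genes of alternative end joining, 7 were tested, with 4 positive and 3 negative (median 0.04). Lig1, a replicative ligase, was at 168 ± 7.1 and 193 ± 17 CPM (SD, n = 3 each; log2 fold change 0.20, adjusted p = 0.272), and Rbbp8, which encodes the end resection factor CtIP, at 100.5 ± 5.9 and 104 ± 3.0 CPM (adjusted p = 0.856).

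**Figure D5:**
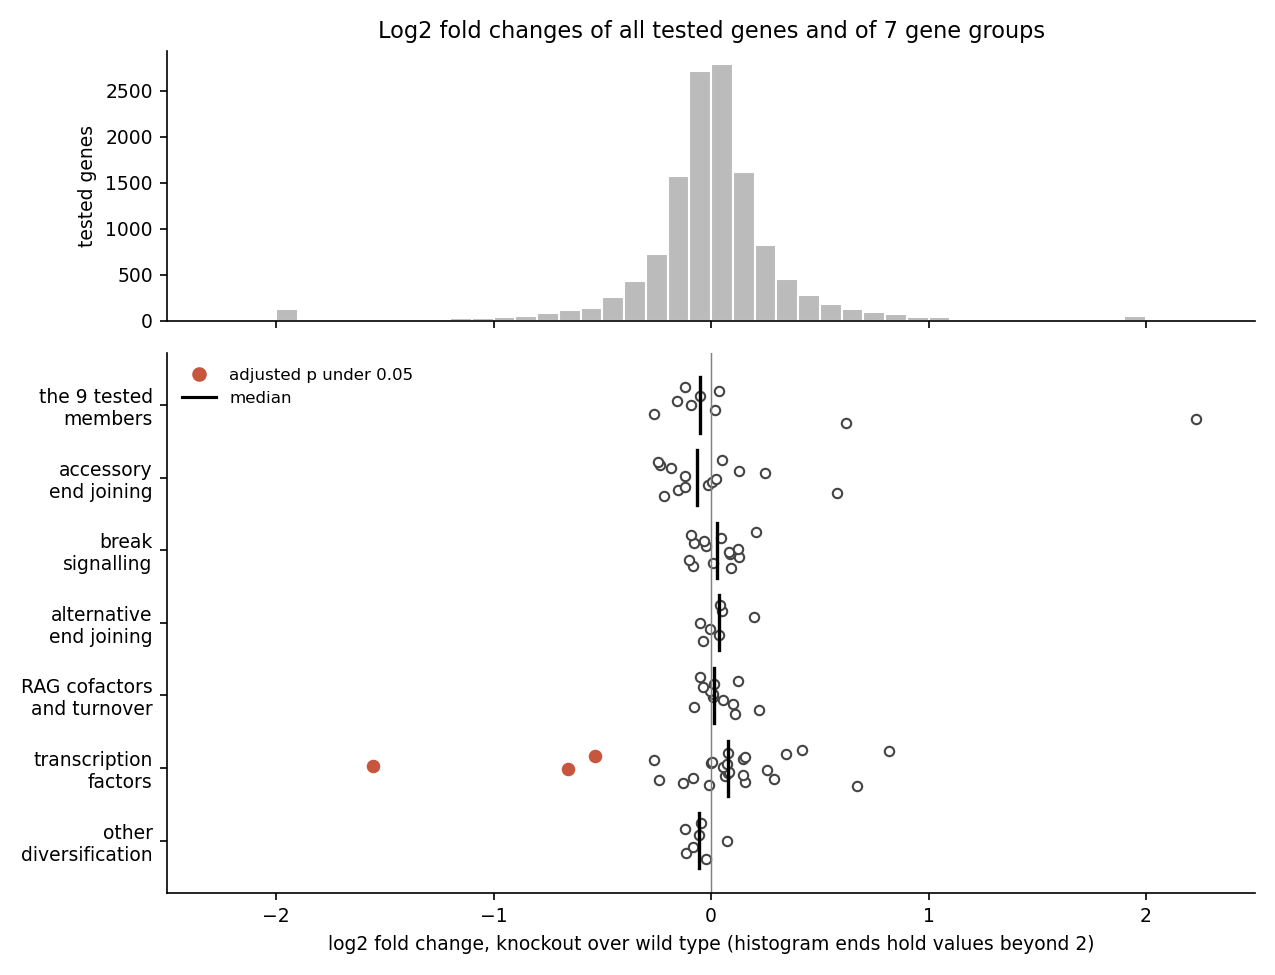
Log2 fold change of the knockout over wild type (x axis): above, a histogram of all 13077 tested genes, whose end bars also hold values beyond 2 in size; below, each tested gene of the 9 tested members and of 6 related lists (points spread vertically for legibility), with list medians as black lines. Filled points are the 3 genes called in edgeR, all of them transcription factors, and list medians lie between -0.07 and 0.08.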

How the data were processed

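Per the file headers, each deposited file gives the raw count of every gene in 1 of the 6 RNA libraries, as whole numbers with no normalization. Per the labels' protocols, ribosomal RNA was removed from total RNA before library preparation. STAR 2.5.3a, featureCounts 2.0.0, limma and mm10 are listed without a role in the submitters' processing notes. Strandedness, annotation release and multi-mapping rules are not given in the sources, so reads of overlapping or near-identical genes can be shared. Not analysed here were 9 chromatin immunoprecipitation and input samples.

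Groups and replicate numbers follow the titles. Of 55335 gene identifiers, a symbol was found for 54587 with their version and for 567 without it. Libraries were scaled by TMM, filtered with filterByExpr and fitted without covariates in R 4.3.3 by the quasi-likelihood method of edgeR 4.0.16, and p-values were adjusted by the Benjamini-Hochberg method over all tested genes. A gene was called at an adjusted p under 0.05. The SE was derived from the fold change and its F statistic. No pair of libraries of a group agreed within sampling noise. The scripts were tested on simulated data. Intervals and floors cover counting error only, since no molecular identifiers are named.

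The members and all lists were chosen with earlier results of these data known. The rule for named genes took all members, the called genes of each list (otherwise the 2 with the smallest p), tested genes within 250 kb of the Rag genes and the 3 genes most like Rag1, Rag2 and Dntt. Values of some genes that this rule names are not reported here. The alternatives changed the scaling (RLE, or library totals only), the filter (none, or mean log2 CPM of at least 2), the tool (DESeq2 1.42.0, or voom from limma 3.58.1), the design (replicate number as block) or the libraries (without each, or without both numbered 2). Those for the listed transcription factors were added after the data were seen. Transcript lengths were not used here, so levels of different genes were not ranked, and ratios are of reads.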

Additional observations from a re-analysis of the deposited data

How the results depend on the processing

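Of 134 fold changes of the members under the alternatives, 119 kept their direction and their side of the threshold, 8 changed sign and 7 became called. Genes higher in the knockout numbered 235, against 482 with no filter and 381 with the replicate block, and 138 to 227 with 1 library left out. Genes lower numbered 365, against 721 with no filter, 231 with the filter at a mean log2 CPM of 2, 565 with the replicate block, 224 without both libraries numbered 2, and 242 to 316 with 1 library left out. Members called numbered 0, against 1 each with no filter and limma-voom (Rag2), 1 each with DESeq2 and the replicate block (Xrcc5), 1 without both libraries numbered 2 (Rag2), and 0 to 2 with 1 library left out, where the 2 are Rag1 and Rag2 without wild-type replicate 2. Without that library, or without both numbered 2, the Rag genes are compared with counts of 0 in wild type, so these calls are set by the removal. Listed transcription factors called higher numbered 0, against 1 with library totals only, 4 with no filter, 2 with DESeq2, 4 with the replicate block, 1 without both libraries numbered 2, and 0 to 1 with 1 library left out. The fold changes that changed sign were all small: with 1 library left out, log2 values ranged from -0.0336 to 0.109 for Xrcc6, -0.0257 to 0.0803 for Xrcc4, -0.146 to 0.0655 for Lig4, -0.187 to 0.0117 for Nhej1 and -0.205 to 0.0096 for Prkdc, and Xrcc4 was at -0.0219 without both libraries numbered 2. The log2 ratio of Lig4 to Xrcc4, -0.10 between the groups, ranged from -0.22 to 0.06 with 1 library left out. Except where fewer samples or genes were tested by construction, the cause was not tested. With the replicate block, Xrcc5 was called (log2 fold change -0.26, adjusted p = 0.0338 in edgeR). Same-numbered libraries deviated together with correlations of 0.03, 0.21 and 0.40 for numbers 1, 2 and 3. Wild-type replicate 1 correlated best with knockout replicate 2 (0.27). Whether same-numbered libraries shared a batch was not tested and cannot be told from these values. At the filter of a mean log2 CPM of 2, Rag1, Rag2 and Nhej1 gave no value. Rag1, Rag2 and Dntt had at most 54 reads in any library. For Rag1 and Rag2, the biological coefficients of variation of 0.939 and 0.812 also widen the intervals.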

Other observations

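Genes that act on antigen receptor genes after V(D)J recombination, in somatic hypermutation and class switching, were measured alongside. Of 8 listed, 7 were tested, and 0 were called by edgeR or DESeq2, with 0 at an unadjusted p under 0.05, 1 positive and 6 negative fold changes and a median log2 of -0.06.

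Gfi1, the relative of Gfi1b, was below the filter on low counts. It was chosen after its values were seen, since its reads stood out in both libraries numbered 2: it had 1, 17 and 0 reads in wild-type replicates 1, 2 and 3 and 0, 12 and 1 reads in knockout replicates 1, 2 and 3.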
